A study of Mus musculus with 9 samples.

Results

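The genes of hepatic fat synthesis Acaca, Fasn, Acly, Scd1, Gpam and Elovl6 were looked up by position on a mouse circular RNA (circRNA) array. A circRNA belonged to the set if its probe was named by its genome position (build mm9) and its whole span lay inside a window around one of these genes. The rule uses position and no measured value, and the set held 6 circRNAs of 14043 named by position and 30534 on the array. Of these, 3 lay in the Acaca window and 3 in the Acly window. No position-named circRNA lay in or across the edge of the Fasn, Scd1, Gpam or Elovl6 window. The other 16491 circRNAs carry a number or code in place of a position and could not be placed.

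Livers came from wild-type C57BL/6J males of 20 weeks of age. Metformin mice had 17 weeks on a high fat diet, in which fat gave 45% of the energy, with a daily gavage of metformin at 3 mg per kg in the last 5 weeks. High fat diet mice ate the same diet for the same time and were given saline by gavage in the last 5 weeks. Control mice ate chow for 17 weeks, with no gavage listed, so diet and gavage cannot be told apart in a comparison with control. There were 3 arrays in a group, and for each one liver tissue of 4 mice of that group had been pooled. The spread between arrays is therefore that between pools. RNA was digested with RNase R, an exonuclease that removes linear RNA and spares circles, and labelled with Cy3 for the 1-colour array. In whole liver, fewer cells of a type and less RNA per cell cannot be told apart, and since no probe carries a gene name the liver's defining markers were not looked up.

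A circRNA forms when the spliceosome joins the end of a downstream exon back to the start of an upstream one, so that the RNA closes into a ring that lacks free ends. Its level need not follow that of the linear messenger RNA of the same gene, and no level of a messenger RNA or enzyme was measured here. The 6 genes span the route from citrate to stored fat. Acly, ATP citrate lyase, splits citrate into acetyl-CoA in the cytosol, and Acaca, acetyl-CoA carboxylase alpha, turns acetyl-CoA into malonyl-CoA, the committed step of fatty acid synthesis. Fasn builds palmitate from these precursors, Elovl6 lengthens it, Scd1 adds a double bond, and Gpam attaches fatty acids to glycerol-3-phosphate at the start of triglyceride synthesis. In liver these genes are induced by insulin and carbohydrate through the transcription factors SREBP-1c and ChREBP. The kinase AMPK, which metformin can activate, phosphorylates and inhibits the Acaca enzyme.

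The Acaca window covered chromosome 11, 83940000 to 84215000, and its circRNAs lay close together in one part of it. The largest spanned 84006581 to 84029474, a genomic distance of 22893 bases. A slightly shorter one, from 84006581 to 84027792 (21211 bases), shared its lower end. The smallest, from 84008940 to 84009189 (249 bases), lay inside both. The Acly window covered chromosome 11, 100335000 to 100392000. Its circRNAs spanned 100353819 to 100360076 (6257 bases) and 100357174 to 100360076 (2902 bases), which shared their upper end, and 100365517 to 100378220 (12703 bases), which overlapped neither. Thus 4 of the 6 shared a back-splice end with another, against 46.8% of all 14043 position-named circRNAs. The spans ran from 249 to 22893 bases, and the median span of all position-named circRNAs was 8108 bases. Spans are genomic distances with any introns included. Exon, intron and UTR were not assigned, since the gene table at hand is of another build (GRCm38), and no sequence of the circles or of their probes was at hand. The circRNAs are called below by their gene window and span.

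**Figure D1:**
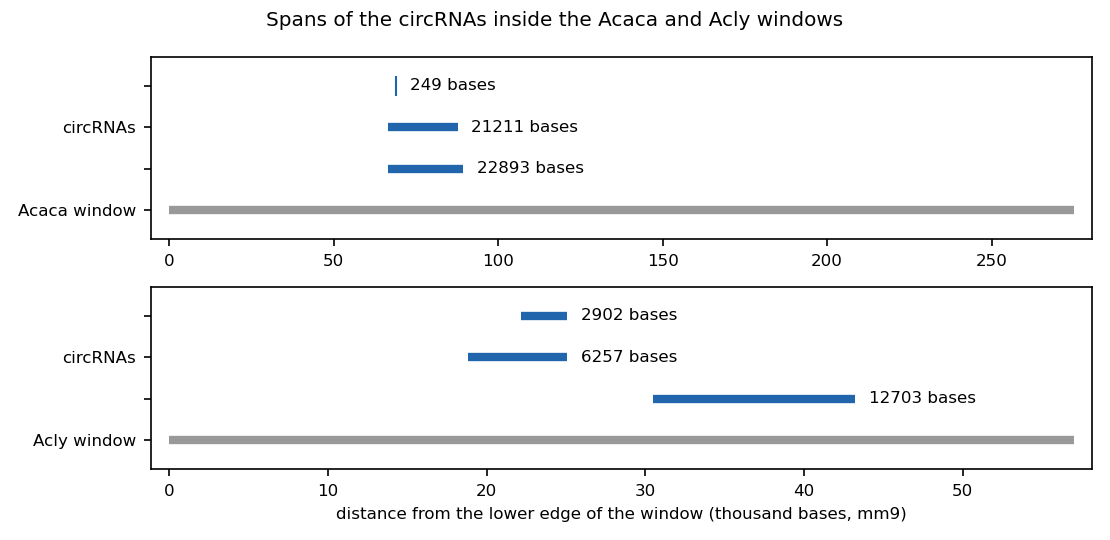
Spans of the 6 circRNAs (blue) along the Acaca window (top) and the Acly window (bottom), both shown as grey bars, in kilobases from the lower edge of the window. The 3 Acaca circRNAs overlap in one part of the window, with the circle of 249 bases inside the 2 larger ones, and the Acly circle of 12703 bases lies apart from the 2 that share an end.

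The 4 windows without a circRNA differed in how far they lay from the next position-named one. For Fasn (chromosome 11, 120665000 to 120687000) the nearest was 34715 bases above the window, and for Elovl6 (chromosome 3, 129235000 to 129342000) it was 73872 bases above. For Gpam (chromosome 19, 55142000 to 55203000) it was 162636 bases above, and for Scd1 (chromosome 19, 44468000 to 44483000) it was 266026 bases below. These distances describe the design of the array and not the RNA in the livers.

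Levels are given as log2 of the scanner's processed intensity minus the 75th percentile of all probes other than controls on the same array, so that 0 is the level of that percentile. A partner probe that bears the same name with the ending _neg accompanied each circRNA probe. The sources used here do not give the partners' design, and each was taken only as a reading beside that of its circRNA. Of the 6 circRNA probes, 5 were well above background, as the scanner software flags it, on 9 of 9 arrays, and that of the Acaca circle of 21211 bases on 8 of 9. All 6 were tested, but 1 partner, that of the same circle, was above background on 3 of 9 arrays and was not. None of the 6 probes or their partners was flagged as an outlier on any array.

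The arrays differed in quality in a way that touches these values. Between arrays the share of probes well above background varied from 69.4% (metformin replicate 3) to 84.2% (control replicate 3), with high fat diet replicate 2 at 71.7%. The median local background was 53 intensity units on metformin replicate 3 and high fat diet replicate 2 and 46 on high fat diet replicate 3, against 29 to 40 on the other 6 arrays. All 3 control arrays and high fat diet replicate 1 lay in column 1 of the first slide, high fat diet replicates 2 and 3 and metformin replicates 1 and 2 in its column 2, and metformin replicate 3 on a second slide. The part of background, column and slide in the results was not tested beyond the values given beside them.

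The probes of the 3 Acly circRNAs gave strong signal. The intensity of the circle of 12703 bases was 4211 to 5373 units over the 9 arrays, that of the circle of 6257 bases 1769 to 2587 and that of the circle of 2902 bases 1433 to 2152. The scanner's own error was 10.0% of the intensity at each of these. The Acaca circRNAs gave less: 329 to 483 units for the circle of 249 bases, 99.0 to 189.7 for that of 22893 bases and 49.0 to 102.3 for that of 21211 bases. The error reached 26.7% of the intensity for the circle of 21211 bases on metformin replicate 3, where its spot was 1.85 times as bright as the local background. Probes differ in how well they bind, so these intensities do not rank the circles by abundance. The partner of the Acly circle of 12703 bases was about as bright as the circRNA probe, at 4119 to 5145 units.

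**Figure D2:**
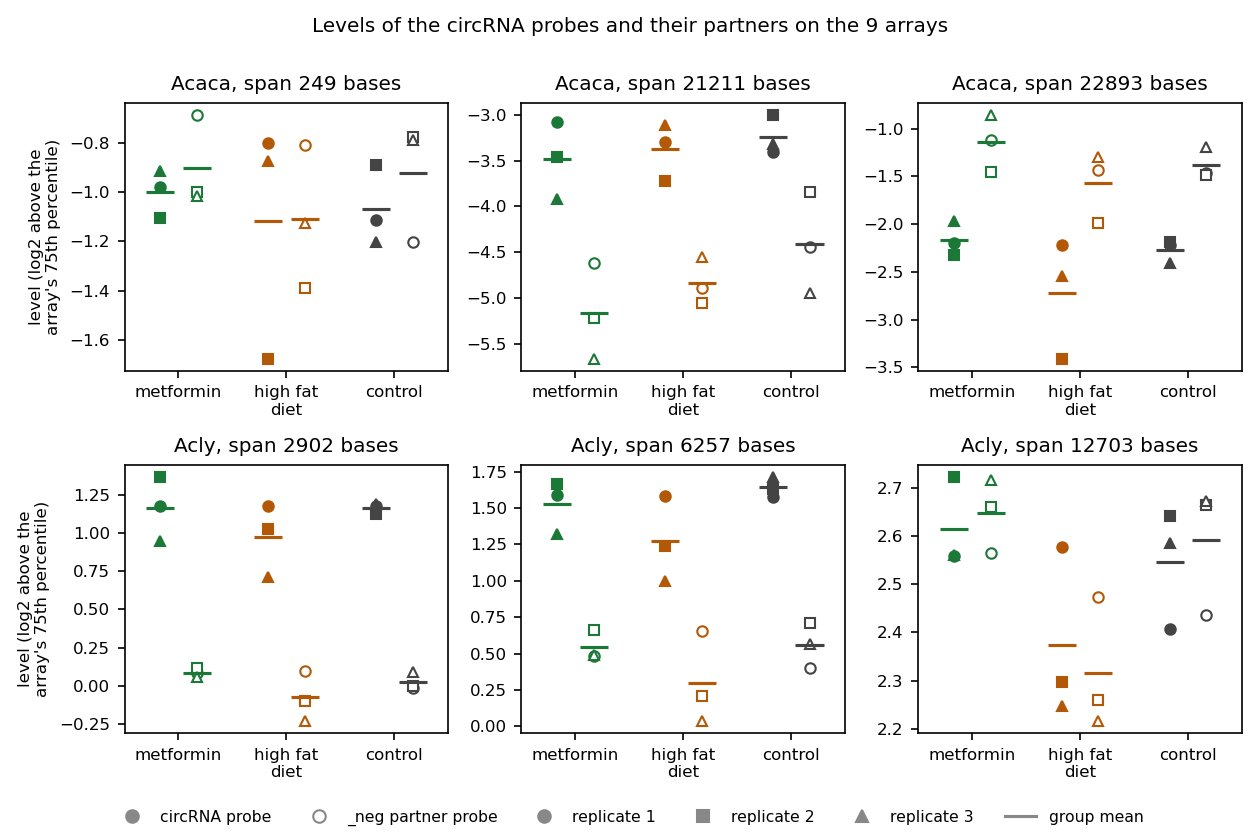
Level of each circRNA probe (filled) and its _neg partner (open) on the 9 arrays, as log2 above the array's 75th percentile, with a panel for each circRNA, groups along the x axis, a marker shape for each replicate and lines at group means (n = 3 arrays). High fat diet replicate 2 is the lowest array for the Acaca circles of 249 and 22893 bases and high fat diet replicate 3 for all 3 Acly circles, while high fat diet replicate 1 lies near the control arrays.

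The first comparison asked whether 17 weeks of high fat diet changed these circles. All 6 had lower means on the high fat diet than in controls, by a median log2 difference of -0.18, and none was called (limma, 0 of 6 at an adjusted p under 0.05). Over all circRNAs tested, 0.00388% were called, 55.2% had a lower mean on the diet and the median difference was -0.02. The groups overlapped for all 6, whereas they did not for 12.4% of circRNAs tested (3076 of 24862). Here and below such shares count only those tested that had a value on every array of both groups. One of the 6, the Acly circle of 6257 bases, had an unadjusted p under 0.05, as did 7.23% of circRNAs tested.

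The Acly circle of 6257 bases stood at 1.58, 1.24 and 1.00 on high fat diet replicates 1, 2 and 3, against 1.58, 1.63 and 1.71 on control replicates 1, 2 and 3. High fat diet replicate 1 equalled the lowest control to this precision and the other 2 lay below all controls. The group means were 1.27 ± 0.293 on the high fat diet and 1.64 ± 0.0674 in controls (SD, n = 3 each). The log2 difference was -0.37 ± 0.163 (SE; 95% interval -0.72 to -0.01), a level 0.775 times that of controls, with an unadjusted p of 0.0448 and an adjusted p of 0.688 (limma). With array column as a covariate the difference was -0.32 (limma, adjusted p = 0.993). Within array column 1, which holds the controls and high fat diet replicate 1, the difference was -0.06, a value that rests on 1 high fat diet array. It came to -0.52 without that array (limma, adjusted p = 0.371) and to -0.23 when replicate 3 of the diet was left out (adjusted p = 0.766).

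The Acly circle of 2902 bases, which shares its upper end with that of 6257 bases, stood at 1.18, 1.03 and 0.72 on high fat diet replicates 1, 2 and 3, against 1.18, 1.13 and 1.19 on the control replicates. The log2 difference was -0.19 ± 0.155 (SE, 95% interval -0.53 to 0.15, limma adjusted p = 0.847). The Acly circle of 12703 bases stood at 2.58, 2.30 and 2.25 on the high fat diet arrays, against 2.41, 2.64 and 2.59 on the control arrays. Its log2 difference was -0.17 ± 0.136 (SE, 95% interval -0.47 to 0.13, limma adjusted p = 0.847). In both, high fat diet replicates 2 and 3 lay below all controls and replicate 1 did not. Within array column 1 the differences were 0.0093 for the circle of 2902 bases and 0.033 for that of 12703 bases, on that single array. With array column as a covariate they were -0.20 and -0.095 (limma, adjusted p = 0.998 for both). They were -0.06 and -0.11 with high fat diet replicate 3 left out, and -0.29 and -0.27 with replicate 1 of the diet left out.

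The Acaca circle of 22893 bases had the largest of the 6 differences between diet and control. It stood at -2.21, -3.41 and -2.55 on high fat diet replicates 1, 2 and 3, against -2.22, -2.19 and -2.41 on the control replicates. The log2 difference was -0.45 ± 0.249 (SE, 95% interval -0.999 to 0.09, limma adjusted p = 0.757). It depended on which arrays were used: it came to -0.11 with high fat diet replicate 2 left out and to -0.71 with replicate 1 of the diet left out (limma, adjusted p = 0.390). Within array column 1, on replicate 1 as its single high fat diet array, it was 0.057, and with array column as a covariate it was -0.10 (limma, adjusted p = 0.998). In the same window the circle of 249 bases stood at -0.80, -1.68 and -0.88 on the high fat diet arrays, against -1.11, -0.89 and -1.20 on the control arrays. There the 2 high fat diet arrays other than replicate 2 lay above all controls, and the difference was -0.05 ± 0.209 (SE, limma adjusted p = 0.983). That of 21211 bases stood at -3.29, -3.73 and -3.11 on the high fat diet arrays, against -3.40, -3.00 and -3.32 on the control arrays, a difference of -0.14 ± 0.223 (SE, limma adjusted p = 0.936). Without high fat diet replicate 2 the differences of the circles of 249 and 21211 bases were 0.23 and 0.04, so that 4 of the 6 circRNAs and not all were lower. With array column as a covariate that of the circle of 249 bases was 0.15 and the other 5 were negative. The 95% intervals of the 6 differences reached from -0.999 to 0.41, and 5 of the 6 intervals included 0.

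**Figure D3:**
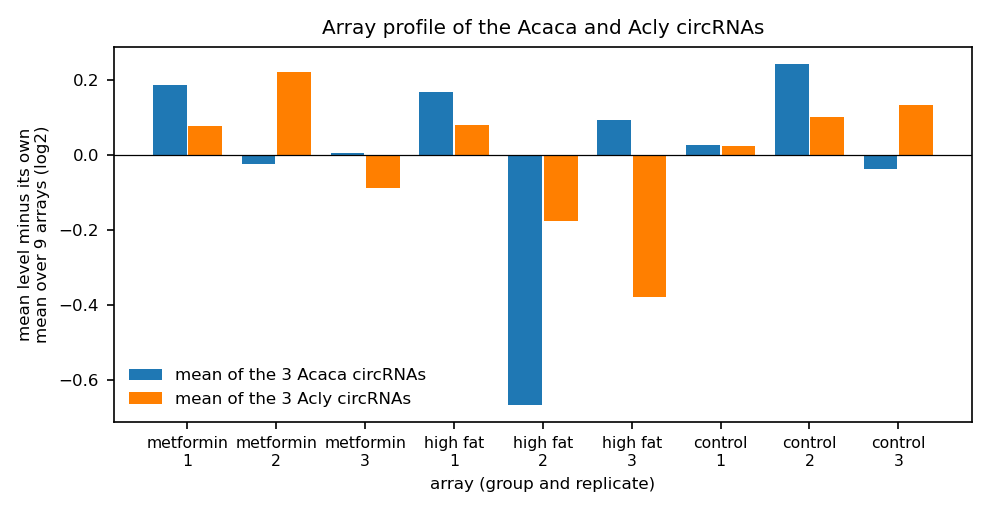
Mean level of the 3 Acaca circRNAs (blue) and of the 3 Acly circRNAs (orange) on each array, each circle first set relative to its own mean over the 9 arrays (log2, y axis). The lowest Acaca bar is -0.67 on high fat diet replicate 2 and the lowest Acly bar is -0.38 on high fat diet replicate 3, whereas high fat diet replicate 1 is at 0.17 and 0.08.

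The second comparison asked what 5 weeks of metformin did on the same diet. Of the 6 circRNAs, 5 had higher means with metformin than on the high fat diet alone, and 1, the Acaca circle of 21211 bases, a lower one. The median log2 difference was 0.22, and none was called (limma, 0 of 6). Over all circRNAs tested, 0% were called, 50.1% had a higher mean with metformin, and the median difference was 0.00. At an unadjusted p under 0.05 there was 1 of the 6, against 4.16% of circRNAs tested (1075 of 25828). The groups overlapped for all 6, and did not for 7.88% of circRNAs tested. The high fat diet arrays enter both this comparison and the one with control, so that a low high fat diet array lowers one difference and raises the other, and the opposite signs are not a separate result.

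In the Acaca window the circle of 22893 bases stood at -2.20, -2.32 and -1.97 on metformin replicates 1, 2 and 3, against -2.21, -3.41 and -2.55 on the high fat diet replicates. The metformin arrays lay close to each other and to high fat diet replicate 1. The log2 difference was 0.56 ± 0.249 (SE, 95% interval 0.02 to 1.11), a level 1.48 times that of the diet alone, with an unadjusted p of 0.0442 and an adjusted p of 0.974 (limma). The difference was 0.22 with high fat diet replicate 2 left out and 0.82 with replicate 1 of the diet left out (limma, adjusted p = 0.747). Within array column 2, with 2 arrays of each group, it was 0.72. Against control, at -2.27 ± 0.117, the metformin mean of -2.16 ± 0.179 (SD, n = 3 each) differed by 0.11 ± 0.249 (SE, limma adjusted p = 0.992), and by 0.46 with array column as a covariate (limma, adjusted p = 0.714).

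The 3 Acly circles had similar differences between metformin and the diet alone. The circle of 6257 bases stood at 1.59, 1.67 and 1.32 on metformin replicates 1, 2 and 3, against 1.58, 1.24 and 1.00 on the high fat diet replicates, a difference of 0.25 ± 0.163 (SE, 95% interval -0.11 to 0.61). That of 2902 bases stood at 1.18, 1.37 and 0.95 with metformin, against 1.18, 1.03 and 0.72 on the diet alone, a difference of 0.19 ± 0.155 (95% interval -0.15 to 0.53). That of 12703 bases stood at 2.56, 2.72 and 2.56 with metformin, against 2.58, 2.30 and 2.25 on the diet alone, a difference of 0.24 ± 0.136 (95% interval -0.06 to 0.54). In each case metformin replicate 2 was the highest array and high fat diet replicate 3 the lowest. The adjusted p was 0.974 for all 3 (limma). Within array column 2 the differences were 0.51, 0.40 and 0.37 for the circles of 6257, 2902 and 12703 bases. Within column 1, with 1 array of each group on different slides, they were -0.26, -0.23 and -0.017. With slide as a block, where metformin replicate 3 is alone on the second slide, they were 0.35, 0.30 and 0.27 (limma, adjusted p = 0.998 for all 3). Over all columns they were 0.11, 0.06 and 0.18 with high fat diet replicate 3 left out, and 0.40, 0.29 and 0.34 with replicate 1 of the diet left out.

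For the Acaca circle of 249 bases the metformin arrays stood at -0.98, -1.11 and -0.92, against -0.80, -1.68 and -0.88 on the high fat diet arrays, a difference of 0.12 ± 0.209 (SE, limma adjusted p = 0.979). For the Acaca circle of 21211 bases they stood at -3.08, -3.46 and -3.92, against -3.29, -3.73 and -3.11 on the high fat diet arrays, a difference of -0.11 ± 0.223 (SE, limma adjusted p = 0.979). In neither did the metformin arrays stand apart from those of the diet alone, and each difference turned direction without 1 high fat diet array. It was -0.16 for the circle of 249 bases without replicate 2 and 0.03 for that of 21211 bases without replicate 3, and 0.11 for that circle without metformin replicate 3.

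Metformin was also set against control, which asks what diet, gavage and drug did together. Of the 6 circRNAs 3 had higher and 3 lower means with metformin, beside 44.2% of circRNAs tested that were higher, and none was called (limma, 0 of 6), as 0% of circRNAs tested were. At an unadjusted p under 0.05 there were 0 of the 6, against 5.46% of circRNAs tested (1406 of 25763). The median log2 difference was 0.03, against -0.02 over all circRNAs tested. The groups overlapped for all 6, and did not for 12.7% of circRNAs tested. The differences ran from -0.24 ± 0.223 for the Acaca circle of 21211 bases to 0.11 ± 0.249 for that of 22893 bases (SE). The Acly circles of 6257, 2902 and 12703 bases differed by -0.12 ± 0.163, -0.0012 ± 0.155 and 0.07 ± 0.136 (SE), with 95% intervals of -0.47 to 0.24, -0.34 to 0.34 and -0.23 to 0.37. The adjusted p of the 6 ran from 0.975 to 1.00 (limma).

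**Figure D4:**
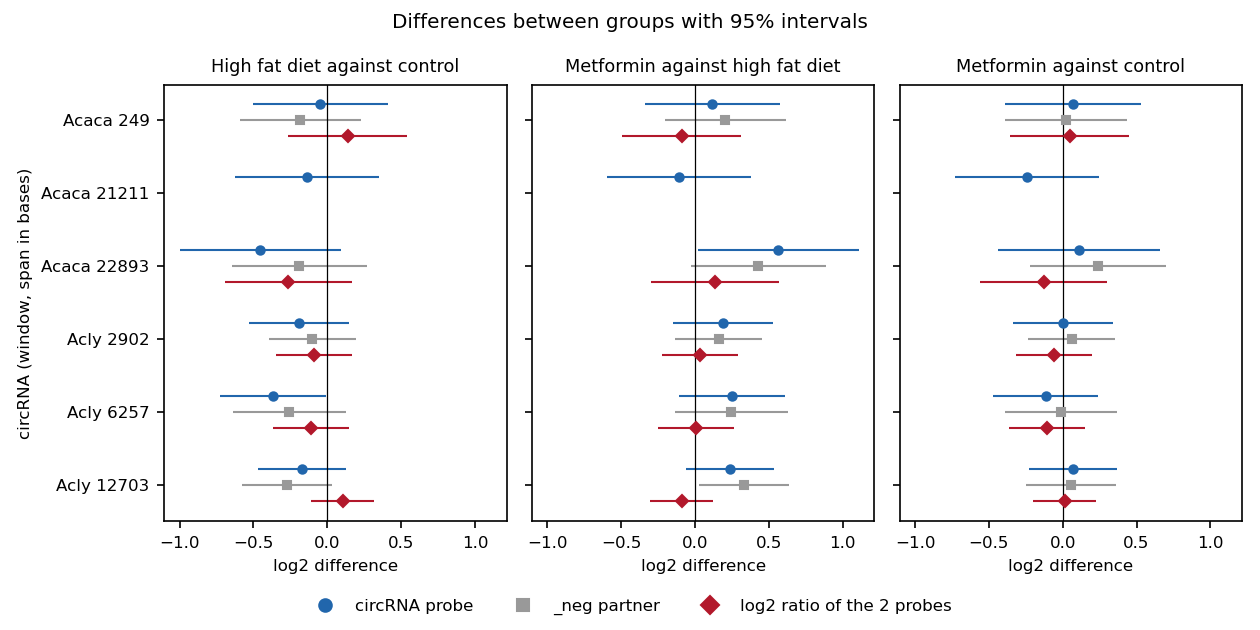
Log2 difference (x axis) of each circRNA (y axis) in the 3 comparisons, for the circRNA probe (blue), the _neg partner (grey) and the log2 ratio of the 2 probes (red), with 95% intervals from limma. The partner and the ratio of the Acaca circle of 21211 bases were not tested. The intervals of the ratio all include 0, and circRNA probe and partner mostly lie on the same side of 0.

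The partners lay on the same side as the circles in most cases. In the comparison of diet with control all 5 partners tested had lower means, as had 55.3% of all partners tested, and 0 of 5 were called (limma; 0% of partners tested). At an unadjusted p under 0.05 there were 0 of the 5, against 6.89% of partners, and groups did not overlap for 0 of the 5, against 12.3%. In the comparison of metformin with the diet alone all 5 had higher means, as had 58.5% of all partners tested, and 0 of 5 were called (limma; 0% of partners tested). At an unadjusted p under 0.05 there was 1 of the 5, against 4.37% of partners. That 1 was the partner of the Acly circle of 12703 bases, at 2.65 ± 0.0756 with metformin and 2.32 ± 0.137 on the diet alone (SD, n = 3 each). Its log2 difference was 0.33 ± 0.139 (SE, limma adjusted p = 0.980), the groups did not overlap, and 8.18% of partners tested had groups that did not. Against control 4 of 5 had higher means with metformin, as had 52.1% of all partners tested, and 0 of 5 were called (limma; 0% of partners tested). At an unadjusted p under 0.05 there were 0 of the 5, against 6.47% of partners, and groups did not overlap for 0 of the 5, against 13.6%. The partner of the Acaca circle of 21211 bases, not well above background on 6 of 9 arrays, had means of -5.17 with metformin, -4.83 on the high fat diet and -4.41 in controls.

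Array by array, the levels of circle and partner were correlated. Over the 9 arrays the Pearson correlation between the 2 probes was 0.91 for the circle of 12703 bases (exact permutation test, two-sided, p = 0.00174, adjusted p = 0.0183) and 0.88 for that of 6257 bases (exact p = 0.00402, adjusted p = 0.0259). It was 0.83 for that of 2902 bases (exact p = 0.00976, adjusted p = 0.0341). The p-values were adjusted over 21 relations. The permutation tests here and below treat the 9 arrays as interchangeable, although these differ in group, column and slide. Differences between groups or arrays that many probes share therefore enter the p-values. Correlations of other pairs of probes were not computed for comparison. The Spearman correlations were 0.73, 0.78 and 0.70 (exact permutation p = 0.0311, 0.0172 and 0.0433), with adjusted p of 0.131, 0.0904 and 0.151. Without the 2 arrays farthest from the median of the circRNA probe the Pearson correlations were 0.64, 0.41 and 0.79. The relation of the circle of 6257 bases thus rests largely on high fat diet replicates 2 and 3. In the Acaca window the Pearson correlation was 0.83 for the circle of 21211 bases (exact p = 0.00494, adjusted p = 0.0259; Spearman 0.80, exact p = 0.0138, adjusted p = 0.0904), whose partner was not well above background on 6 of 9 arrays, 0.79 for that of 22893 bases (exact p = 0.0207, adjusted p = 0.0544; Spearman 0.38, exact p = 0.313) and 0.62 for that of 249 bases (exact p = 0.0645, adjusted p = 0.136; Spearman 0.32, exact p = 0.410). Without their 2 farthest arrays these were 0.73, 0.54 and 0.42. The columns of a slide held too few arrays for values within a column.

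Among the circles themselves, the Acly pair that shares an end went together over the 9 arrays, with a Pearson correlation of 0.92 (exact permutation test, two-sided, p = 0.00135, adjusted p = 0.0183; Spearman 0.82, exact p = 0.0108, adjusted p = 0.0904) and 0.81 without high fat diet replicates 2 and 3. The Acly circles of 6257 and 12703 bases, which do not overlap, correlated at 0.81 (exact p = 0.00815, adjusted p = 0.0341; Spearman 0.87, exact p = 0.00451, adjusted p = 0.0904), but at 0.30 without those 2 arrays. Those of 2902 and 12703 bases correlated at 0.74 (exact p = 0.0186, adjusted p = 0.0544; Spearman 0.60, exact p = 0.0968, adjusted p = 0.290), and at 0.75 without high fat diet replicate 3 and metformin replicate 3. The Acaca pair that shares an end correlated at 0.22 (exact p = 0.566, adjusted p = 0.700; Spearman 0.18, exact p = 0.644), and at 0.04 without high fat diet replicate 2 and metformin replicate 3. The Acaca circles of 22893 and 249 bases correlated at 0.84 (exact p = 0.0338, adjusted p = 0.0789; Spearman 0.47, exact p = 0.213, adjusted p = 0.496), and at 0.63 without high fat diet replicates 2 and 3. Those of 21211 and 249 bases correlated at 0.46 (exact p = 0.223, adjusted p = 0.360; Spearman 0.50, exact p = 0.178, adjusted p = 0.466), and at 0.59 without high fat diet replicate 2 and metformin replicate 3. Pairs of an Acaca and an Acly circle lay between -0.13 and 0.61, and 0 of 9 passed the threshold after adjustment. The 2 arrays farthest from the median of the Acaca circle differed between pairs. Without them all 9 were negative, between -0.95 and -0.15, so that the mostly positive values rest on those arrays.

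The log2 ratio of circle to partner, which removes only a change of equal proportion in both probes, was tested as well. In none of the 3 comparisons was it called for any of the 5 circRNAs tested (limma; 0% of pairs tested in each comparison). At an unadjusted p under 0.05 there were 0 of the 5 in each, against 5.81% of pairs for the diet against control, 4.91% for metformin against the diet and 6.69% for metformin against control. Between metformin and the diet the groups overlapped for all 5 (8.56% of pairs did not), and so they did between metformin and control (13% of pairs did not). For the Acly circle of 6257 bases the ratio was 0.93, 1.03 and 0.96 on the high fat diet arrays, against 1.18, 0.92 and 1.15 on the control arrays. The difference of that ratio was -0.11 ± 0.114 (SE, limma adjusted p = 0.963), beside -0.37 for the circRNA probe alone. For the Acaca circle of 22893 bases the ratio differed by 0.14 ± 0.192 between metformin and the diet (SE, limma adjusted p = 0.972), beside 0.56 for the circRNA probe alone.

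The 6 circles differed in how they stood to their partners. The Acly circles of 6257 and 2902 bases and the Acaca circle of 21211 bases were brighter than the partner on 9 of 9 arrays, with mean log2 ratios of 1.01 ± 0.116, 1.09 ± 0.112 and 1.43 ± 0.314 (SD over 9 arrays). The last of these ratios is imprecise, since its partner was well above background on only 3 of 9 arrays and the scanner's error reached 100.4% of that partner's intensity. The Acaca circle of 22893 bases was dimmer than its partner on 9 of 9 arrays, at -1.02 ± 0.256. The Acly circle of 12703 bases and the Acaca circle of 249 bases lay near equality, at -0.01 ± 0.0787 and -0.08 ± 0.218, and were the brighter probe on 4 of 9 arrays each. Over all circRNAs on the array the partner had the higher mean for 22%.

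The authors' deposited log2 values follow the difference in intensity between circle and partner, and stand at a floor of -3.32 where the partner is as bright or brighter. The Acaca circle of 22893 bases was at the floor on 9 of 9 arrays, as were 12.4% of all circRNAs, although its own probe was well above background on every array. The Acly circles of 6257 and 2902 bases had deposited values of 9.70 to 10.52 and 9.41 to 10.30, none at the floor. Their authors' deposited values averaged 9.95 ± 0.234 on the high fat diet, against 10.39 ± 0.165 in controls, for the circle of 6257 bases, and 9.73 ± 0.278 against 9.98 ± 0.0767 for that of 2902 bases (SD, n = 3 each).

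For the Acly circle of 12703 bases the deposited values fell into 2 classes. They were 8.46, 6.59 and 6.43 on high fat diet replicates 1, 2 and 3, and stood at the floor on all 3 control arrays and on metformin replicates 1 and 3, with 7.89 on metformin replicate 2. The mean difference between diet and control was 10.48 on that log2 scale (limma on the authors' deposited values, adjusted p = 0.732). The scanner values behind it differed little. The log2 ratio of circle to partner was 0.11, 0.04 and 0.03 on the high fat diet arrays, against -0.03, -0.02 and -0.09 on the control arrays, a difference of 0.10 ± 0.0956 (SE, limma adjusted p = 0.962). The groups did not overlap for this 1 of the 5 circRNAs, as for 11.7% of pairs tested. The circRNA probe itself was lower on the diet by the difference of -0.17 given above. With metformin the ratio was -0.01, 0.06 and -0.15. Likewise, the Acaca circle of 249 bases stood at the floor on 5 of 9 arrays, and at 1.26 to 6.19 on the others, in no one group.

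**Figure D5:**
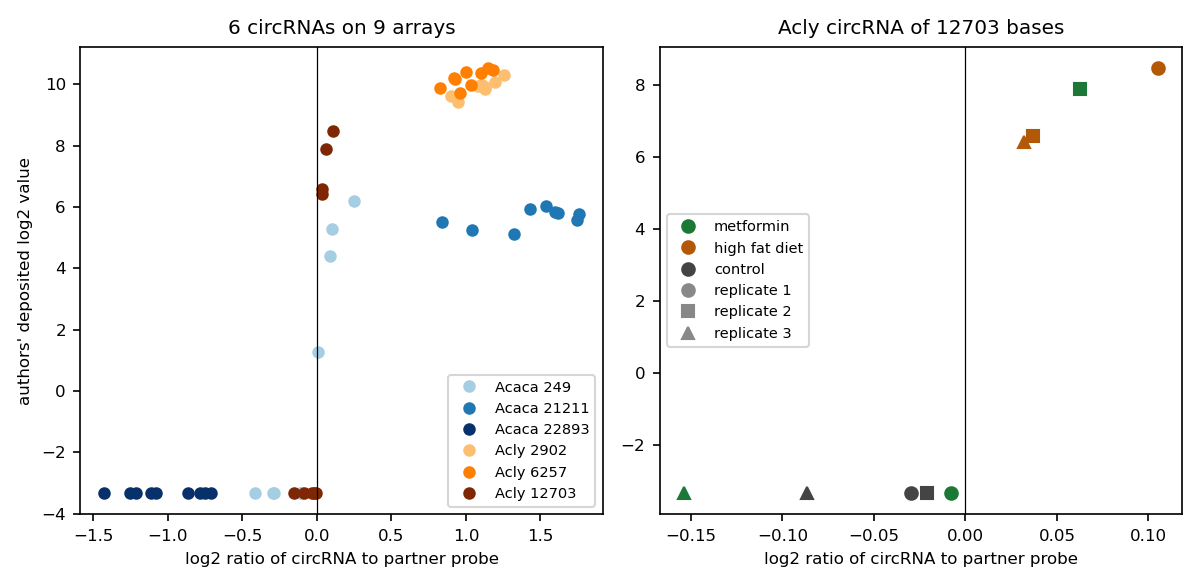
The authors' deposited log2 value (y axis) against the scanner values' log2 ratio, circRNA over partner (x axis), for the 6 circRNAs on 9 arrays (left) and for the Acly circle of 12703 bases by group and replicate (right), with a vertical line at equal brightness. Every point left of the line is at the floor of -3.32, and for the Acly circle of 12703 bases the 3 high fat diet arrays lie just right of the line and the 3 control arrays just left of it.

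Within an array, 2 circles that share an end can be set against each other for unequal change, though not for abundance. The log2 ratio of the Acaca circle of 22893 bases to that of 21211 bases was 0.88, 1.14 and 1.95 on metformin replicates 1, 2 and 3, 1.08, 0.32 and 0.57 on the high fat diet replicates, and 1.19, 0.81 and 0.92 on the control replicates. The highest value, on metformin replicate 3, is from the array on which the circle of 21211 bases was not well above background. For Acly the log2 ratio was that of the shorter circle, of 2902 bases, to the longer, of 6257 bases. It was -0.41, -0.30 and -0.37 with metformin, -0.40, -0.21 and -0.28 on the high fat diet, and -0.40, -0.50 and -0.52 in controls. The means were -0.36 ± 0.0565, -0.30 ± 0.0975 and -0.47 ± 0.0666 (SD, n = 3 each). High fat diet replicates 2 and 3 lay above all controls, replicate 1 (-0.403) lay just below the highest control (-0.396), and so the groups overlapped.

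The circRNAs elsewhere whose array profile was most like that of each window were found among 11038 candidates. These were the position-named circRNAs outside the windows that were tested and had a value on all 9 arrays. Those most alike had the smallest root mean square difference from the mean of the window's 3 circles after each profile was centred. For Acly they spanned 102596064 to 102621741 on chromosome 2 (0.06 on the log2 scale), 45679954 to 45706574 on chromosome 9 (0.07) and 118043534 to 118044227 on chromosome 11 (0.07), against a median of 0.26 over all candidates. For Acaca they spanned 82215152 to 82224658 on chromosome 10, 55241794 to 55271147 on chromosome 1 (0.09 for both) and 4434835 to 4458371 on chromosome 2 (0.10), against a median of 0.31. They are named by position only.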

How the data were processed

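Liver circRNAs were measured on 9 arrays, 3 per group. The deposited intensities came from Agilent Feature Extraction 11.5.1.1 and a grid of build mm9, per the file headers. Version 10.7 stands in the submitters' processing notes. The deposited processed intensity is background-subtracted and detrended within the array. The authors also deposited log2 values per circRNA, whose floor and equal distribution over arrays were found from the values. The scanner's flags of 0 or 1 were used as deposited by the authors.

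Log2 processed intensity minus the array's 75th percentile over all spots other than controls was used. Spots flagged as outliers (85 to 1277 per array) were left out after that step. A probe was tested if well above background on all 3 arrays of a group, which kept 25864 circRNAs (84.7%). One fit over all 9 arrays used limma 3.58.1 (R 4.3.3; lmFit, eBayes; Benjamini-Hochberg over all probes tested in a comparison, threshold 0.05), tested on simulated data first. Raw mean intensities are not used: normexp (offset 50) ran on spot medians instead. The number of arrays limits the precision.

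Every circRNA in the 6 windows is reported. Named with values were the brightest in each window, those with an unadjusted p under 0.05, and those sharing an end with them, and the 3 most alike elsewhere. Members and lists were chosen with earlier results of these data known. Alternatives were normexp scaling, the deposited values, other filters, trend and robust fitting, array column, slide, the replicate number as a block, and each array left out. The percentile without outlier spots was added after the data were seen.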

Additional observations from a re-analysis of the deposited data

How the results depend on the processing

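None of the 6 circRNAs was called in any comparison under any of 19 alternatives (limma), leaving out each array in turn included (lowest and highest count 0), nor was the ratio to the partner under any of 11. The smallest adjusted p of a member was 0.371, without high fat diet replicate 1. Same-numbered arrays deviated from their group means with correlations of -0.14 to 0.19. The main fit did not pair arrays by number, and correlations this weak cannot decide whether same-numbered samples were handled together. With the replicate number as a block 0 of the 6 circRNAs were called in each comparison, and the ratio to the partner was called for none of them. For the circRNA probes the smallest adjusted p was 0.661 for the diet, 0.974 for metformin against the diet and 0.973 for metformin against control (limma). The block thus changed no call among the 6. Over all circRNAs tested it gave 5 calls for the diet against control, against 1 without it, and 0 for metformin against the diet and against control. The 18 differences took 363 values in all, of which 330 had no opposite direction and 33 the opposite one. In 12 of these 33 the value also moved by more than the spread between replicates. With the authors' deposited values these were 2.12 for the Acaca circle of 249 bases and 10.48 for the Acly circle of 12703 bases (diet against control), -1.84 and -6.74 for the same circles (metformin against the diet), and 0.27 for the Acaca circle of 21211 bases (metformin against control). The first 4 belong to the circles of 249 and 12703 bases, each at the floor on 5 of 9 arrays. The log2 ratio to the partner, which has no floor, differed in the same directions, by 0.14, 0.10, -0.09 and -0.09. The part of floor and partner in these values was not tested. Within array column 1 the values among these 12 were 0.057 and 0.27 for the Acaca circles of 22893 and 249 bases and 0.0093 and 0.033 for the Acly circles of 2902 and 12703 bases (diet against control). They were -0.26, -0.23 and -0.017 for the Acly circles of 6257, 2902 and 12703 bases (metformin against the diet), where each value rests on 1 array of a group. The cause was not tested. Leaving out outlier spots before the 75th percentile moved the median difference between diet and control over all circRNAs to -0.06, against -0.02 with all spots, and no member's difference changed sign in any comparison. Over all circRNAs tested, calls numbered 0 to 15 under the alternatives and 1 as reported for the diet against control, 0 to 14 and 0 for metformin against the diet, and 0 to 23 and 0 for metformin against control. With 3 arrays a group, signal over background limits most the Acaca circle of 21211 bases.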
